A study of Homo sapiens with 8 samples.

Results

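The 9 genes described here were chosen by symbol: CPS1, OTC, ASS1, ASL and ARG1, the enzymes of the urea cycle proper; NAGS, which makes the activator of CPS1; SLC25A15, the mitochondrial ornithine carrier; ARG2, the mitochondrial arginase; and GLS2, the liver-type glutaminase. All 9 were found among the 58206 genes of the count table, and 6 of them passed the filter on low counts. In hepatocytes the cycle turns toxic ammonia into urea. NAGS makes N-acetylglutamate, without which CPS1 cannot join ammonia and bicarbonate to carbamoyl phosphate, and OTC adds that product to ornithine inside the mitochondrion. The citrulline formed leaves in exchange for ornithine through SLC25A15, ASS1 and ASL convert it to arginine in the cytosol, and ARG1 splits arginine into urea and ornithine. GLS2 releases ammonia from glutamine in the same periportal cells, on the side of the liver lobule where Wnt signalling is low.

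RNA was sequenced from 8 libraries of Alexander1, an established human line from a hepatocellular carcinoma, grown in medium with serum and added glutamine. The 4 parental libraries, labelled wt (Axin1 -), come from the line as obtained, whose Axin1 is said to lack the stretch that binds the kinase GSK3, so that canonical Wnt signalling is always on. The other 4, labelled Axin1 +, come from a stable derivative made by retroviral transfer of an Axin1 plasmid and hygromycin selection of clones, and how many clones it holds is not given in the sources used here. No vector-only line is among the samples, so the Axin1 insert, the retrovirus, the drug and the clone cannot be told apart. Nothing says whether the replicates were separate cultures, so p-values measure the spread between these libraries, which may be technical.

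Library totals ranged from 11232951 to 15263761 counts in the parental group and from 12372436 to 26400782 in the derivative. AXIN1 itself was not higher in the derivative, at 45.4 CPM ± 5.13 (SD, n = 4) against 52.4 CPM ± 3.49 (SD, n = 4), with a log2 fold change of -0.21 (SE 0.12, adjusted p = 0.267 by edgeR); these libraries are therefore called restored-labelled, and every direction rests on the labels. CPM here is the scaling of counts to a common library size, with each library total first multiplied by its TMM factor from edgeR. These factors ran from 0.897 in parental replicate 1 to 1.06 in restored replicate 4. The values per length given below are made from CPM and carry the same factors. Of 15 hepatocyte markers, 14 had a mean of at least 1 CPM, and their summed level was 32019 to 37176 CPM in parental and 29170 to 35293 CPM in restored-labelled libraries. HP, for haptoglobin, was the exception, with at most 6 counts in any library. Single markers did differ behind the similar sums. Of the 14 tested, 4 were called higher and 4 lower (edgeR adjusted p under 0.05), where 19.2% of all genes tested were called in either direction. Their log2 fold changes ran from -3.22 for AHSG to 2.05 for FGB. Libraries of replicate number 1 stood apart in both groups: ALB was 46.7 CPM in parental replicate 1 against 159 CPM or more in the other parental libraries, and 13.8 CPM in restored replicate 1 against 445 CPM or more. Among markers of other cells, COL1A2, ACTA2, LUM, CDH5, VWF, KDR, PTPRC, CD14, CD68 and EPCAM stayed below 1 CPM on average. PDGFRB, a marker of stellate cells and pericytes, was at 1.69 ± 0.639 and 0.221 ± 0.162 CPM and was called lower (SD, n = 4 each, edgeR adjusted p = 0.0045), entering the test only through its parental counts, and COL1A1 was at 1.11 ± 0.645 and 1.87 ± 1.38 CPM (edgeR adjusted p = 0.308). The part of such cells in the results was not tested. LYZ was abundant in all libraries, and PECAM1 was higher in the restored-labelled ones (48.2 CPM ± 10.3 against 5.18 CPM ± 0.951, SD, n = 4 each). In bulk RNA, fewer cells expressing a gene and less RNA per cell cannot be told apart.

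The cycle was expressed very unevenly in this line. Per kilobase of the longest coding transcript (RPKM, CPM divided by that length), the parental order was ASS1, CPS1, ASL, ARG2, SLC25A15, ARG1, OTC, NAGS and GLS2. ASS1 stood at 1853 RPKM ± 392 and CPS1 at 505 RPKM ± 52.1 (SD, n = 4 each), ranks 24 and 121 among 19577 protein-coding genes. ASL, which uses the product of ASS1, lay far lower at 34.8 RPKM ± 1.72, and ARG2 and SLC25A15 at 15.9 RPKM ± 6.41 and 12.4 RPKM ± 5.42 (SD, n = 4 each). The ranges of ARG2 and SLC25A15 overlapped, from 7.70 to 23.3 RPKM and from 7.85 to 20.2 RPKM, so their order is not beyond the spread. ARG1 reached 0.703 RPKM ± 0.150 and OTC 0.225 RPKM ± 0.109 (SD, n = 4 each) in the parental libraries. NAGS and GLS2, with at most 2 and 1 counts per parental library, are not distinguishable from each other at this depth.

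In the restored-labelled libraries ASS1 and CPS1 again led, at 1345 RPKM ± 172 and 317 RPKM ± 31.4 (SD, n = 4 each), ranks 26 and 199. ASL was at 26.2 RPKM ± 2.28, SLC25A15 at 10.0 RPKM ± 8.32 and ARG2 at 9.65 RPKM ± 1.55 (SD, n = 4 each), the ranges of the last 2 again overlapping. ARG1, at 0.0834 RPKM ± 0.0986, and OTC, at 0.129 RPKM ± 0.0849, had overlapping ranges here. Within a library the level of ASS1 was 43.9 to 70.0 times that of ASL per length in the parental group and 45.5 to 57.8 times in the restored-labelled group. All 9 genes together took 0.610% to 0.678% of the counts of a parental library and 0.458% to 0.487% of a restored-labelled one. ASS1 and CPS1 supplied 97.5% to 98.2% of those counts.

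**Figure D1:**
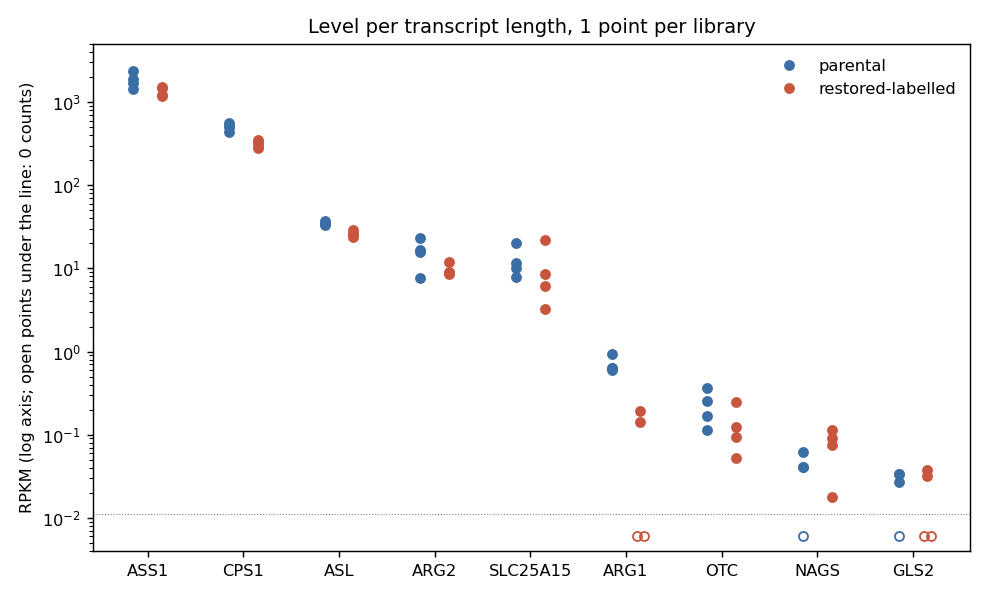
RPKM (CPM per kilobase of the longest coding transcript, log axis) of the 9 genes in each of the 8 libraries, parental in blue and restored-labelled in red; open points under the dotted line are libraries with 0 counts. ASS1 and CPS1 lie above 270 RPKM in every library, ASL, ARG2 and SLC25A15 between 3.28 and 36.8 RPKM, and ARG1, OTC, NAGS and GLS2 below 1 RPKM.

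Promoter sequence was compared as a feature that the choice of genes did not use. Windows of 250 bases before each RefSeq start site (GRCh38.p14) were found for all 9 genes, 12 windows in all, with 3 for CPS1 and 2 for ASS1. Windows for OTC and ARG1, which are near the detection limit, and for ASL and the upstream start of ASS1, which are well expressed, show a contrast in CpG dinucleotides. That contrast did not hold over all 9 genes, as given below. CpG are in capitals (5′ to 3′, each on the plus strand, chrX:38352354-38352603, chr6:131572976-131573225, chr7:66075569-66075818 and chr9:130444457-130444706).
OTC: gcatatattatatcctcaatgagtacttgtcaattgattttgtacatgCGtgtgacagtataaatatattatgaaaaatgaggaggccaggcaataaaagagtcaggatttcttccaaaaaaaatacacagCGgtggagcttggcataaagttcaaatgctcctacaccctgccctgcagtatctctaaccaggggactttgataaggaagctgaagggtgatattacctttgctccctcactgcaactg
ARG1: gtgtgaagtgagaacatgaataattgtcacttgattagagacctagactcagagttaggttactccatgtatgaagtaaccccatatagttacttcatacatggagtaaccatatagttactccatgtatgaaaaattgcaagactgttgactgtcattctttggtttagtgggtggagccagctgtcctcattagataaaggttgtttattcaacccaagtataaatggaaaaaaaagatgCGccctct
ASL: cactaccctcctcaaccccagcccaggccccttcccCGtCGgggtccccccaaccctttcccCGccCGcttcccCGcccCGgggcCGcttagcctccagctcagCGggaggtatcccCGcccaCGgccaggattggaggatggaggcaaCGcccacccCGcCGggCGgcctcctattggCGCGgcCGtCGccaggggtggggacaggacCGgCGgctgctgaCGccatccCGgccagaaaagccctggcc
ASS1: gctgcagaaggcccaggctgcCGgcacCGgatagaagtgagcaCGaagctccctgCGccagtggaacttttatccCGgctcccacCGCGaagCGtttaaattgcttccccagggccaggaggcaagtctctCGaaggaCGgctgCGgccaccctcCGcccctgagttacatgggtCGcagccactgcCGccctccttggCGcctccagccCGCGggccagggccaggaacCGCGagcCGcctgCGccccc

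The OTC and ARG1 windows held 2 and 1 CpG, and those of ASL and ASS1 held 22 and 21. Over all 35116 RefSeq windows of this length the median was 11 CpG, and 22.9% of them held at most 2. ARG2 and SLC25A15 had 27 and 35 CpG, and NAGS and GLS2, which were barely detected, had 13 and 10. CpG number did not order the levels, since the 3 CPS1 windows held only 1, 3 and 3 CpG while CPS1 was the second of the 9 genes in level. The table of counts does not say which CPS1 start was used. The core of the TCF/LEF site, CTTTGA searched on both strands, occurred in 1 of the 12 windows, 53 bases before the OTC start, and in 11.2% of all windows. A TATA box, TATAAA on both strands, lay 29 bases before the ARG1 start and 192 bases before that of OTC, and in 10.7% of all windows. The C/EBP motif TTGCNNAA occurred in 0 of the 12 windows and in 9.05% of all. No hit overlapped a hit of another motif. Distances are counted from RefSeq starts, and the gene starts of OTC and ARG1 given below, from GENCODE, lie inside these windows. The CTTTGA hit of OTC and the TATAAA hit of ARG1 are downstream of those GENCODE starts.

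The main question was which of these genes differed between the restored-labelled and the parental libraries. CPS1, ASL and ARG1 were lower, none was higher, and ASS1, ARG2 and SLC25A15 were not called. The call rule was an adjusted p under 0.05 in edgeR's quasi-likelihood test over 14289 genes, by which 8.77% of all genes tested were lower and 10.4% higher. ARG1 entered the test only through its parental counts, so its call is not independent of the filter, and OTC, NAGS and GLS2 did not enter it.

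**Figure D2:**
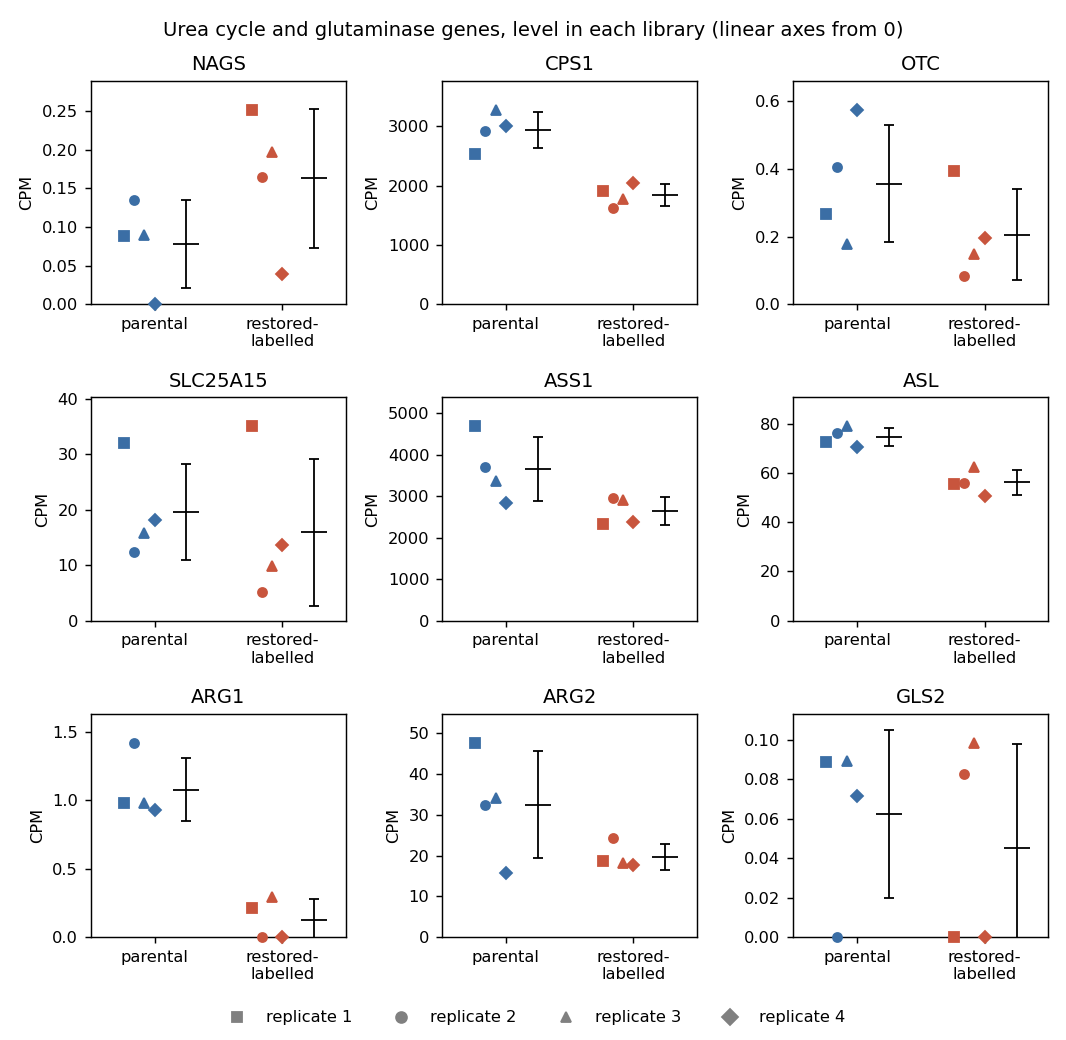
CPM of each of the 9 genes in the 4 parental (blue) and 4 restored-labelled (red) libraries, by replicate number, with mean and SD in black, on linear axes from 0 (an SD bar reaching below 0 is not drawn there). The groups are separate, with restored-labelled lower, for CPS1, ASL and ARG1, as for 11.2% of all genes tested. They overlap for the other genes.

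The mitochondrial entry of the cycle starts with NAGS and CPS1. CPS1 (ENSG00000021826, chromosome 2, 210477682 to 210679107, plus strand) stood at 2541, 2932, 3275 and 3006 CPM in parental replicates 1 to 4 and at 1917, 1624, 1784 and 2051 CPM in restored-labelled replicates 1 to 4. Every restored-labelled library was below every parental one, as for 11.2% of all genes tested. The means were 2939 ± 303 and 1844 ± 183 CPM (SD, n = 4 each), 1.59-fold lower in the restored-labelled libraries, a log2 fold change of -0.67 (SE 0.14, 95% interval -0.99 to -0.36, edgeR adjusted p = 0.0097). CPS1 kept this call in all 18 other fits run, with an adjusted p of at most 0.0412. The 40 tested genes nearest to it on chromosome 2 had a median of -0.23 on that scale, and 31 of them were negative. NAGS (ENSG00000161653, chromosome 17, 44004546 to 44009063, plus strand) had 1, 2, 1 and 0 counts in the parental and 7, 2, 4 and 1 counts in the restored-labelled libraries. These are at or close to 3 counts, which correspond to 0.108 to 0.267 CPM depending on the library, so no difference in NAGS was detectable at this depth.

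CPS1 works with partners that were compared through a list of 23 carriers and partner enzymes. CA5A, the mitochondrial carbonic anhydrase that supplies bicarbonate to CPS1, had 18, 27, 17 and 25 counts in the parental and 3, 3, 0 and 1 counts in the restored-labelled libraries. No restored-labelled library exceeded 3 counts. The mean parental CPM of CA5A was 10.86 times the mean CPM that 3 counts make in the restored-labelled libraries. That ratio leaves out the spread between libraries. The log2 fold change was -4.22 (SE 0.55, 95% interval -5.44 to -3.00). CA5A entered the test only through its parental counts, so its call (edgeR adjusted p = 0.00071) is not independent of the filter. Its relative CA5B was at 3.89 ± 1.67 and 6.17 ± 1.02 CPM (SD, n = 4 each), without a call (log2 fold change 0.67, SE 0.29, adjusted p = 0.134 by edgeR). SIRT5, which removes acyl groups from CPS1 and activates it, was at 17.8 ± 1.13 and 21.9 ± 1.33 CPM (SD, n = 4 each, edgeR adjusted p = 0.131). CA5B and SIRT5 were chosen after their values were seen.

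OTC (ENSG00000036473, chromosome X, 38352545 to 38421450, plus strand) had 3, 6, 2 and 8 counts in the parental and 11, 1, 3 and 5 counts in the restored-labelled libraries. The ranges overlapped from 0.178 to 0.395 CPM, and without the filter on low counts its edgeR adjusted p was 0.602. CPS1 mRNA was thus abundant in libraries where the mRNA of the next enzyme was at the counting limit. SLC25A15 (ENSG00000102743, chromosome 13, 40789412 to 40810111, plus strand) stood at 32.0, 12.5, 15.9 and 18.2 CPM in the parental and at 35.05, 5.201, 9.86 and 13.6 CPM in the restored-labelled libraries. The library of replicate number 1 was the highest in each group, and the groups overlapped. The log2 fold change was -0.28 (SE 0.49, 95% interval -1.36 to 0.80, edgeR adjusted p = 0.722). It was 0.06 without parental replicate 1 and -1.02 without restored replicate 1 (edgeR adjusted p = 0.0779), so its direction rests on single libraries. Without both it was -0.66 (edgeR adjusted p = 0.0790).

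The 4 biliary markers, a sign of another cell type or state, were also highest in summed level in replicate 1 of each group, but ran against SLC25A15 among the other libraries. KRT19 was at 16.9 CPM in parental replicate 1 and at most 3.99 CPM in the other parental libraries, and at 34.4 CPM in restored replicate 1 and at most 1.43 CPM in the other restored-labelled libraries. The summed level of the 4 markers was 21.97 to 52.8 CPM in parental and 25.6 to 68.9 CPM in restored-labelled libraries. Among replicates 2, 3 and 4 this sum fell in the order in which SLC25A15 rose, in both groups. KRT19, KRT7 and SOX9 had means above 1 CPM, EPCAM was at 0 counts in 3 of 8 libraries, and the part of these cells in the SLC25A15 values was not tested. The 40 tested genes around SLC25A15 on chromosome 13 had a median of -0.61 for the same measure, and 35 of them were negative.

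The cytosolic arm begins with ASS1, which joins citrulline and aspartate. ASS1 (ENSG00000130707, chromosome 9, 130444929 to 130501274, plus strand) was at 4684, 3710, 3379 and 2846 CPM in the parental and at 2333, 2969, 2921 and 2389 CPM in the restored-labelled libraries. Parental replicate 4 fell below restored replicates 2 and 3, so the groups overlapped. The means were 3655 ± 773 and 2653 ± 338 CPM (SD, n = 4 each), and the log2 fold change of -0.46 (SE 0.18, 95% interval -0.86 to -0.07) did not pass after adjustment (edgeR adjusted p = 0.0961). The DESeq2 Wald test placed it just past the threshold (adjusted p = 0.0485). ASS1 has 15 processed pseudogenes in the annotation that match its transcript over at least 200 bases at 80.5% to 93.9% identity, and they held 0.073% of the counts of ASS1 and these pseudogenes together. How reads that match several of these genes were assigned is not given in the sources used here.

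ASL (ENSG00000126522, chromosome 7, 66075798 to 66093558, plus strand), which splits argininosuccinate into arginine and fumarate, showed a small spread for its level. It was at 72.7, 76.1, 78.8 and 70.5 CPM in the parental and at 55.7, 55.8, 62.4 and 50.5 CPM in the restored-labelled libraries. No restored-labelled library reached the lowest parental value. The means were 74.5 ± 3.68 and 56.1 ± 4.89 CPM (SD, n = 4 each), 1.33-fold lower, with a log2 fold change of -0.41 (SE 0.11, 95% interval -0.65 to -0.17, edgeR adjusted p = 0.0265). The call was lost in 7 of 18 other fits, among them those without parental replicate 2 or 3 or restored replicate 2 or 4 (edgeR adjusted p from 0.0598 to 0.0886). With total counts only the log2 fold change was -0.33 (edgeR adjusted p = 0.0758), and without the filter on low counts -0.38 (edgeR adjusted p = 0.123). The 40 nearest tested genes had a median log2 fold change of -0.21.

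Arginine is split by the cytosolic ARG1 in liver and by the mitochondrial ARG2 in many other tissues. ARG1 (ENSG00000118520, chromosome 6, 131573144 to 131584332, plus strand) had 11, 21, 11 and 13 counts in the parental and 6, 0, 6 and 0 counts in the restored-labelled libraries, that is 0.930 to 1.42 CPM against at most 0.296 CPM. The groups did not overlap, but 2 restored-labelled libraries had no count, and 3 counts would be 0.248 and 0.117 CPM in them. The log2 fold change was -2.91 (SE 0.67, 95% interval -4.38 to -1.45, edgeR adjusted p = 0.0134), a size that rests on 56 and 12 counts in all and is not precise. With 1 library left out it ranged from -3.52 to -2.45. The 40 nearest tested genes had a median log2 fold change of 0.39, in the other direction.

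ARG2 (ENSG00000081181, chromosome 14, 67619798 to 67651720, plus strand) was at 47.7, 32.5, 34.2 and 15.7 CPM in the parental and at 18.7, 24.4, 18.2 and 17.6 CPM in the restored-labelled libraries. Parental replicate 4 lay below all restored-labelled libraries, so the groups overlapped. The log2 fold change was -0.72 (SE 0.27, 95% interval -1.33 to -0.12, edgeR adjusted p = 0.0898). Without parental replicate 4 it was -0.95 and passed (edgeR adjusted p = 0.01001), and it also passed without the filter on low counts (log2 fold change -0.69, edgeR adjusted p = 0.0201). Of the 2418 exon bases of ARG2, 904 overlap exons of VTI1B on the opposite strand, and whether counting used strand is not given in the sources used here. The ratio of ARG2 to ARG1 counts, taken without library scaling, was on the log2 scale 4.78 ± 0.662 in the parental and 7.80 ± 2.01 in the restored-labelled libraries (SD, n = 4 each, pseudocount 0.5). ARG2 thus supplied nearly all arginase counts in every library. The difference of 3.02 had p = 0.0286 in a two-sided exact permutation of the 70 labelings, the smallest p that 4 against 4 libraries allow, and it depends on the pseudocount (2.02 with 2). Restored replicates 2 and 4 had 0 ARG1 counts, so their ratios also depend on depth. With thinned counts the difference was 2.71 (exact permutation p = 0.0571). The ratio uses the same ARG1 counts as the edgeR test, so it is not a separate result.

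**Figure D3:**
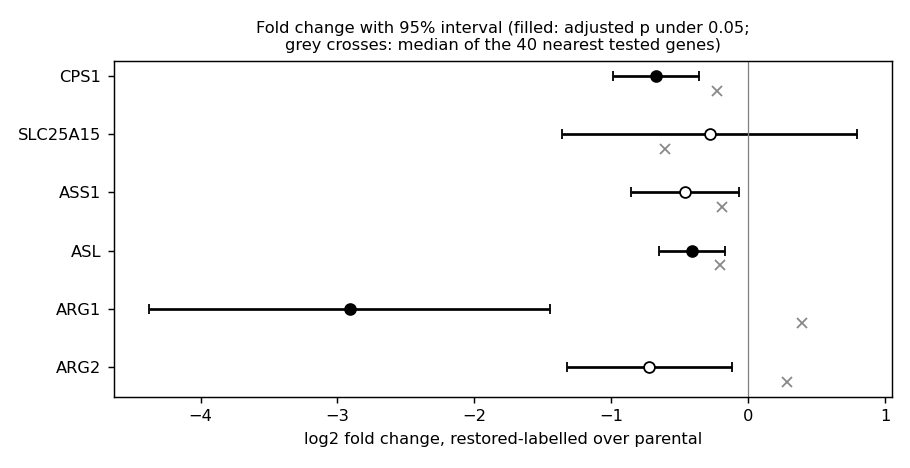
Log2 fold change, restored-labelled over parental, with its 95% interval for the 6 genes that could be tested, filled where the edgeR adjusted p was under 0.05; grey crosses give the median of the 40 nearest tested genes. CPS1, ASL and ARG1 are filled at -0.67, -0.41 and -2.91, and the interval of SLC25A15 spans 0.

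Glutaminase releases ammonia from glutamine, and GLS2 is the form of adult liver. GLS2 (ENSG00000135423, chromosome 12, 56470944 to 56488414, minus strand) had 1, 0, 1 and 1 counts in the parental and 0, 1, 2 and 0 counts in the restored-labelled libraries, all below 3 counts, so no fold is given. Of its 4141 exon bases, 3193 overlap exons of SPRYD4 on the opposite strand, which limits what these counts say about GLS2 if reads were counted without strand. Without the filter on low counts its edgeR adjusted p was 0.824.

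Other genes of ammonia and amino acid metabolism were counted through lists. Of 28 enzymes of glutamine, glutamate and aspartate metabolism, all tested, 2 were higher and 8 lower, with a median log2 fold change of -0.13 against 0.003 over all genes tested. Without restored replicate 4 the called genes numbered 6. The call rule for all list counts is the one used above, by which 19.2% of all genes tested were called in either direction. GAD1, which makes GABA from glutamate, fell from 38.0 ± 8.63 to 14.97 ± 2.52 CPM (SD, n = 4 each, log2 fold change -1.34, SE 0.19, adjusted p = 0.0010 by edgeR). ABAT, which breaks GABA down, fell from 15.2 ± 3.77 to 7.73 ± 0.400 CPM (SD, n = 4 each, log2 fold change -0.97, edgeR adjusted p = 0.0071). ASPG, an asparaginase, fell with a log2 fold change of -3.04 (SE 0.52, adjusted p = 0.0032 by edgeR), or -2.26 without parental replicate 1, its highest library at 17.4 CPM. The restored-labelled counts of ASPG alone would not have passed the filter on low counts, so its call is not independent of the filter. CAD, which makes carbamoyl phosphate in the cytosol for pyrimidines, fell from 137 ± 25.8 to 81.5 ± 13.2 CPM (SD, n = 4 each, log2 fold change -0.75, SE 0.17, adjusted p = 0.0116 by edgeR). Of the 40 tested genes nearest to CAD, 34 were negative, with a median log2 fold change of -0.36.

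The transaminases that feed nitrogen to the cycle were looked at after their values were seen. GOT1, the cytosolic aspartate transaminase, fell from 439 ± 69.3 to 291 ± 25.6 CPM, and its mitochondrial counterpart GOT2 was at 174 ± 33.2 and 194 ± 20.1 CPM (SD, n = 4 each, edgeR adjusted p = 0.0169 and 0.511). GPT and GPT2, the alanine transaminases, fell with log2 fold changes of -0.72 and -0.78 (edgeR adjusted p = 0.0225 and 0.0081). GLUD1, which releases ammonia from glutamate, was at 230 ± 63.0 and 250 ± 21.9 CPM (SD, n = 4 each, edgeR adjusted p = 0.698), with parental replicate 1 the lowest at 135 CPM. GLUL, the glutamine synthetase that captures ammonia in pericentral hepatocytes and is a classic Wnt-dependent liver gene, was at 147, 180, 215 and 172 CPM in the parental and at 143, 168, 193 and 188 CPM in the restored-labelled libraries. These ranges overlapped throughout, and the log2 fold change was -0.05 (SE 0.15, adjusted p = 0.847 by edgeR), with the opposite sign in 3 of the other fits, total counts only among them. ASNS, the asparagine synthetase, was low, at 3.04 ± 1.19 and 4.02 ± 1.24 CPM (SD, n = 4 each, edgeR adjusted p = 0.445).

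Of 27 genes that use arginine or ornithine or make polyamines and proline, 22 were tested, 2 of them higher and 4 lower, with a median log2 fold change of -0.17. The 6 called genes became 2 without parental replicate 2 and 3 without restored replicate 3 or 4. OAT, which turns ornithine into a precursor of proline and glutamate, was at 139, 244, 331 and 295 CPM in the parental and at 404, 336, 500 and 516 CPM in the restored-labelled libraries. Its values did not overlap, as for 23.9% of all genes tested in either direction. OAT rose with a log2 fold change of 0.80 (SE 0.24, adjusted p = 0.0426 by edgeR). That call was lost in 5 of 18 other fits, those without parental replicate 2 or 4 or restored replicate 1, 3 or 4 (edgeR adjusted p from 0.0503 to 0.122). ODC1, the entry to polyamine synthesis, was at 727 ± 154 and 933 ± 179 CPM (SD, n = 4 each), without a call (edgeR adjusted p = 0.212). GAMT, the last step of creatine synthesis, fell from 49.4 ± 4.59 to 20.5 ± 3.64 CPM (SD, n = 4 each, log2 fold change -1.27, SE 0.15, adjusted p = 0.00043 by edgeR). PYCR1, a proline synthesis enzyme, fell from 399 ± 61.9 to 257 ± 21.0 CPM, and SMS, the spermine synthase, rose from 201 ± 18.4 to 278 ± 14.7 CPM (SD, n = 4 each, edgeR adjusted p = 0.0112 and 0.0175). The 40 tested genes nearest to SMS had a median log2 fold change of 0.64, above its own 0.47. SMS lost its call without parental replicate 2 or 3 (edgeR adjusted p = 0.0554 and 0.0520).

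Among the 23 carriers and partner enzymes, 18 were tested, 0 higher and 2 lower (CA5A and SLC25A29), with a median of -0.10. SLC25A29, a mitochondrial carrier of basic amino acids, fell from 25.4 ± 3.21 to 12.3 ± 3.66 CPM (SD, n = 4 each, log2 fold change -1.04, SE 0.20, adjusted p = 0.0063 by edgeR). SLC25A13, the aspartate-glutamate carrier called citrin, was at 114 ± 31.3 and 92.7 ± 16.3 CPM, and SLC7A1, an arginine importer, at 151 ± 42.2 and 103 ± 21.7 CPM (SD, n = 4 each, edgeR adjusted p = 0.342 and 0.108). Without parental replicate 1, the lowest parental library for both, they passed (log2 fold change -0.48 and -0.73, edgeR adjusted p = 0.0355 and 0.0083), and 5 genes of the list were called; SLC7A1 also passed without the filter on low counts (edgeR adjusted p = 0.0470), and 6 genes without both libraries of replicate number 1. SLC38A7, a glutamine transporter, was not called (log2 fold change -0.38, edgeR adjusted p = 0.0956).

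**Figure D4:**
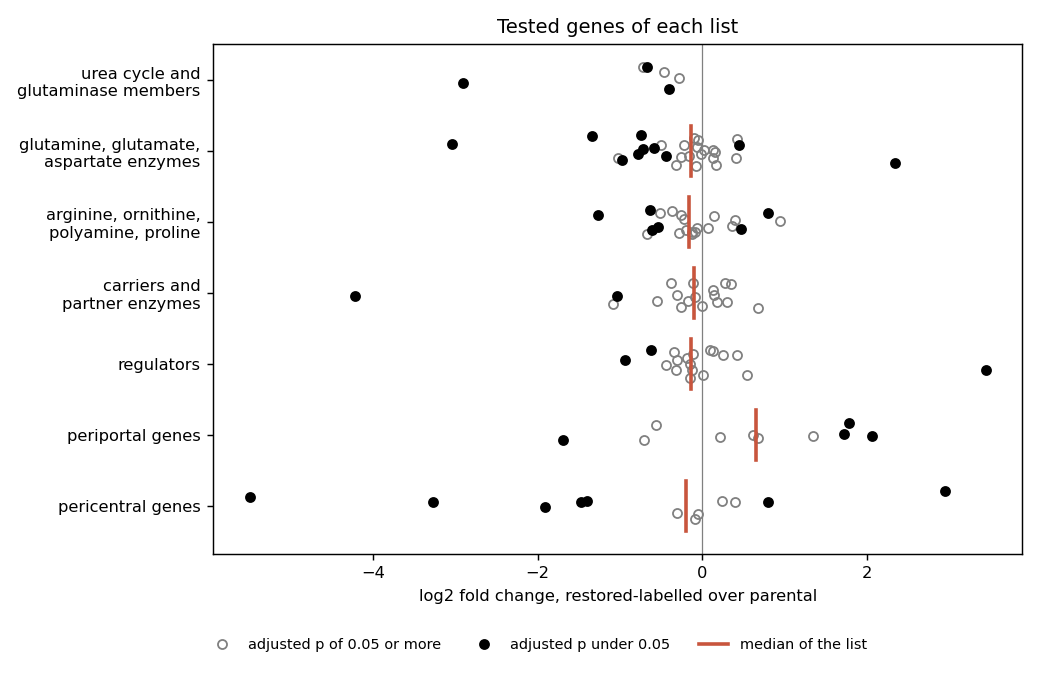
Log2 fold change, restored-labelled over parental, of each tested gene of the 9-gene group and of 6 lists, filled where the edgeR adjusted p was under 0.05; red bars are list medians, left out for the 9-gene group. Medians lie between -0.20 and -0.10 except for the periportal list, at 0.65.

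Factors known to act on these genes formed a list of 20, of which 18 were tested, with 1 higher, 2 lower and a median of -0.13. Only 1 was called without parental replicate 3 or 4 or restored replicate 4. NR1H4, the bile acid receptor FXR, rose from 1.63 ± 0.481 to 17.8 ± 7.51 CPM (SD, n = 4 each, log2 fold change 3.44, SE 0.40, adjusted p = 0.00035 by edgeR), with 6.74 CPM in restored replicate 1 and at least 20.1 CPM in the other restored-labelled libraries. HNF4A, a main hepatocyte factor, was at 307 ± 61.1 and 327 ± 64.1 CPM, and CEBPA at 186 ± 39.6 and 204 ± 63.2 CPM (SD, n = 4 each, edgeR adjusted p = 0.772 and 0.733). CEBPA passed without both libraries of replicate number 1 (log2 fold change 0.47, edgeR adjusted p = 0.0206), and 7 genes of the list were then called; that HNF4A was positive did not hold without parental replicate 1. KLF15, an inducer of amino acid catabolism, was called lower (log2 fold change -0.93, edgeR adjusted p = 0.0463), with overlapping groups, and lost its call without any single library except parental replicate 2. ATF4, the factor of the amino acid response, was at 520 ± 160 and 478 ± 115 CPM (SD, n = 4 each, edgeR adjusted p = 0.764).

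CPS1, ASS1 and the other cycle enzymes mark the periportal side of the lobule, so the remaining periportal genes were counted beside them. Of 16, 10 were tested, with 3 higher, 1 lower and a median log2 fold change of 0.65. ALDH1B1, a mitochondrial aldehyde dehydrogenase, rose from 40.2 ± 8.99 to 138 ± 4.08 CPM (SD, n = 4 each, log2 fold change 1.78, edgeR adjusted p = 5.8e-05), and the 40 tested genes nearest to it had a median of 0.78. HPX, for hemopexin, rose from 2.41 ± 0.728 to 7.97 ± 1.69 CPM (SD, n = 4 each, log2 fold change 1.72, edgeR adjusted p = 0.0017). SDS, the serine dehydratase, rose with a log2 fold change of 2.06 (edgeR adjusted p = 0.0347), or 3.28 without parental replicate 1, and was not called without any other single library except restored replicate 1. The parental counts of SDS alone would not have passed the filter on low counts, so its call is not independent of the filter. G6PC1, the last step of glucose output, was the 1 that fell, with a log2 fold change of -1.69 (SE 0.51, adjusted p = 0.0392 by edgeR) and 140 CPM in restored replicate 1 against 24.7 CPM in the lowest restored-labelled library. FBP1 was not detected in any library. The list count of 4 became 2 without parental replicate 3 or restored replicate 2, 3 or 4, and 6 without restored replicate 1. It was 5, all higher, with total counts only, 9 (7 higher, 2 lower) without the filter on low counts, 6 with the replicate block and 8 without both libraries of replicate number 1. G6PC1 was no longer called lower with total counts only or without parental replicate 2, 3 or 4 or restored replicate 2, 3 or 4.

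On the pericentral side, 12 of 18 genes were tested, with 2 higher, 5 lower and a median of -0.20, and 4 were called without restored replicate 3 or 4. SLC1A2, a glutamate importer, rose from 0.388 ± 0.105 to 3.05 ± 0.898 CPM (SD, n = 4 each, log2 fold change 2.95, SE 0.36, adjusted p = 0.00045 by edgeR), and OAT was the other gene that rose. Among direct Wnt targets, LGR5 was at 4.81 to 18.5 CPM in the parental and at most 0.646 CPM in the restored-labelled libraries, and SP5 at 1.33 to 2.44 CPM against at most 0.323 CPM, with 0 counts of either in restored replicate 2. Both were called lower (edgeR adjusted p = 0.00029 and 0.0037). LGR5, SP5 and SLC1A2 entered the test only through the group where they were high, so these calls are not independent of the filter. Other Wnt targets of the list are named here after their values were seen. TBX3 was called lower, at 63.5 ± 30.1 and 22.8 ± 8.90 CPM (SD, n = 4 each, log2 fold change -1.47, edgeR adjusted p = 0.0252). AXIN2, ZNRF3, RNF43 and TCF7 were not called, with log2 fold changes of -0.31, -0.09, 0.39 and 0.24 (edgeR adjusted p = 0.598, 0.832, 0.0546 and 0.387). The pericentral ammonia channel RHBG had 0 counts in every parental library and at most 0.165 CPM in the restored-labelled ones.

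The genes most like CPS1 over the 8 libraries, by Pearson correlation of log2 CPM with no test, were CAVIN2-AS1 (r = 0.997) and FARSB (r = 0.990), the latter a subunit of a tRNA synthetase. For ASL they were SMIM20 (r = 0.985) and SHMT2 (r = 0.978), the mitochondrial serine hydroxymethyltransferase. CAVIN2-AS1 was low, at a mean of 1.81 CPM in the parental and 0.717 CPM in the restored-labelled libraries. The 8 libraries share the difference between groups, which lifts any such correlation. Pairs of the 6 tested genes are named here after their values were seen. With the group means removed, the most negative pair was CPS1 and ASS1 (r = -0.79 over 8 libraries). The most positive was ASS1 and ARG2 (r = 0.84), followed by ASL and ARG1 (r = 0.69). CPS1 and ASL showed little relation (r = -0.14). In parental replicate 1, for example, ASS1 and ARG2 were at their highest and CPS1 was at its lowest parental value.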

How the data were processed

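Values in the deposited table are counts of reads per gene without normalization, as its whole numbers and unequal totals show; per the submitters' processing notes, bcl2fastq, fastp 0.23.1, STAR 2.7.4 and GRCh38 were used, while the annotation, the counting program and the use of strand are not given in the sources used here. Columns were matched to samples by the names in the labels, and 0 columns were left over. Gene symbols came from a table of Ensembl identifiers (57495 of 58206 matched), and positions, exons and transcript lengths from GENCODE 29 on GRCh38. The test was run with edgeR 4.0.16 under R 4.3.3: filterByExpr (minimum count 10, minimum total 15), TMM scaling, and glmQLFit with glmQLFTest on all 8 libraries without covariates, two-sided, with Benjamini-Hochberg adjustment over all tested genes at 0.05. The fit was tested on simulated data. Standard errors were derived by dividing each log2 change, without sign, by the root of its F statistic. Correlations use log2 CPM with a prior count of 2. Floors of 3 counts cover counting error only, while the 95% intervals of fold changes include the spread between libraries. Alternatives were other scalings and filters, DESeq2 1.42.0, limma-voom (limma 3.58.1), a stricter threshold of 0.01, thinning, blocking on replicate number, and leaving out each library; leaving out both libraries of replicate number 1 was added after seeing the data. Same-numbered libraries did not deviate together (correlations of deviations from group means -0.0629, 0.00667, -0.0325 and 0.227), so the numbers were not taken as pairs.

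The 9 genes, the lists and the tests were chosen with earlier results of these data known. Named genes are the 9, the 3 of each list with the smallest p, a fixed set (GLUL, OAT, ODC1, GLUD1, ASNS, CAD, SLC25A13, SLC7A1, HNF4A, CEBPA, ATF4, AXIN1) and the 2 genes closest in pattern to each called gene with a mean of at least 1 CPM; others are said to be chosen after their values were seen. G6PC1, FBP1, RHBG, other genes not in this rule and the marker genes were also named after their values were seen. Some genes that this rule names, and a planned ratio that needs one of them, are not reported here, while counts over whole lists include every gene of the list.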

Additional observations from a re-analysis of the deposited data

Results flagged for a closer look

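In a group of 4 libraries a value was singled out when its gap to the nearest other library took more of the range than Dixon's 95% limit allows, which chance does in about 1 of 20 groups; 7 values among at most 78 groups were singled out. ARG1 was at 1.42 CPM in parental replicate 2, against 0.930 to 0.980 CPM in the other parental libraries. ARG2 was at 24.4 CPM in restored replicate 2, against 17.6 to 18.7 CPM. GAD1 was at 50.9 CPM in parental replicate 4, against 32.8 to 35.2 CPM. Parental replicate 1 stood apart for ASPG (17.4 CPM against 4.19 to 4.74 CPM), SDS (5.43 CPM against 0.624 to 1.08 CPM) and GLUD1 (135 CPM against 258 to 266 CPM). AXIN1 was at 37.7 CPM in restored replicate 4, against 47.6 to 48.2 CPM in the other restored-labelled libraries.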

How the results depend on the processing

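Of the 9 genes, 3 were called in the analysis as reported and between 2 and 4 with 1 library left out, 2 with the replicate number as a block (CPS1 and ARG1; ASL had an edgeR adjusted p of 0.0589), 3 without both libraries of replicate number 1, and 1 (CPS1) at an adjusted p under 0.01; 0 were higher in any of these. ARG1 was not tested with a mean of at least 1 CPM or with thinned counts. Over all genes 2738 were called, 2033 with the replicate block, 964 at an adjusted p under 0.01, 4623 without both libraries of replicate number 1, and 1394 to 3523 with 1 library left out (1508, 1531 and 1394 without parental replicate 2, restored replicate 3 and restored replicate 4). Over the 6 lists together 31 genes were called, 28 with the replicate block, 14 at an adjusted p under 0.01, 48 without both libraries of replicate number 1, and 18 (without restored replicate 4) to 40 (without parental replicate 1) with 1 library left out. The ARG2 to ARG1 difference was 3.02 (p = 0.0286); it was 2.71 with thinned counts (p = 0.0571), 3.02 with the replicate block (p = 0.125, the smallest that test allows), 3.76 without both libraries of replicate number 1 (p = 0.1, where 3 against 3 allow no smaller p) and 2.34 to 3.67 with 1 library left out (p from 0.0286 to 0.0857, all exact permutation tests). Signs turned for values near 0. SLC25A15 ran from -1.02 to 0.058 with 1 library left out, with 0.0002 without restored replicate 2. GLUL was 0.027 with total counts only and -0.13 to 0.048 with 1 left out. GLUD1 was -0.060 without both libraries of replicate number 1 and -0.062 to 0.20 with 1 left out. HNF4A ran from -0.032 to 0.19 and ATF4 from -0.31 to 0.024 with 1 left out. Of 112 alternative values for the 6 tested genes, 98 kept direction and side of the threshold. The cause of these changes was not tested. Depth limits OTC, NAGS, GLS2 and the size of the ARG1 difference.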
